A study of Mus musculus with 9 samples.

Results

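The genes described here mark the functional classes of motor neuron in the spinal cord: Chodl, Mmp9, Calca and Calcb for fast motor neurons, Sv2a and Esrrb for slow ones, Esrrg and Htr1d for gamma motor neurons, and Spp1 and Rbfox3 for alpha motor neurons. They were followed through every probe set that the array annotation gives to 1 of these symbols alone, 17 probe sets of 45101 on the array. They read 8 of the 10 genes, out of 18192 genes with a probe set of their own, and Calca and Spp1 are not analysed here. RNA was measured on 9 Affymetrix mouse arrays, which read each transcript through short probes grouped into probe sets. SOD1 mutant mice gave 3 arrays of motor neurons and wild-type mice gave 3, both taken from tissue sections by laser capture microdissection, and total spinal cord of wild-type mice gave the other 3. Mutant SOD1 causes an inherited form of the motor neuron disease ALS. The labels do not name the SOD1 allele or how neurons were recognised for capture, and give no age in words. Every array title carries the code D28, which no label explains and which may or may not be an age. The source field reads ventral cord for all arrays, the total cord ones included. They do not say whether arrays share an animal, so p-values measure the spread between arrays, which may be technical.

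Motor neurons of the ventral horn fall into alpha cells, which drive the force-producing muscle fibres, and gamma cells, which drive the fibres inside muscle spindles and set their sensitivity to stretch. Alpha cells are divided further by the fibres they innervate, fast-fatigable ones at one end and slow ones at the other, and in SOD1 mouse models the fast-fatigable cells are the first to lose their contacts with muscle. In mice, Chodl and Mmp9 are known from fast cells, Sv2a protein from slow synapses, Esrrg from gamma cells, and Rbfox3 protein (NeuN) is strong in alpha and weak in gamma cells. These arrays measured captured cells in bulk, and the labels do not say which classes were captured.

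The 2 windows shown are those before the annotated starts of the fast marker Chodl and the slow marker Sv2a, which differed in opposite directions between motor neurons and cord. Both are RefSeq sequence of assembly GRCm38.p6, on the plus strand, ending at the base before the outermost annotated start. The Chodl window is chr16:78930698-78930840, and the Sv2a window is chr3:96180977-96181226, in which capitals mark a GC box (GGGCGG, here on the minus strand as CCGCCC).
Chodl: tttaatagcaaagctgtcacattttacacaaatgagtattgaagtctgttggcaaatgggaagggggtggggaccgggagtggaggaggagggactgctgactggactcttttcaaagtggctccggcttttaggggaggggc
Sv2a: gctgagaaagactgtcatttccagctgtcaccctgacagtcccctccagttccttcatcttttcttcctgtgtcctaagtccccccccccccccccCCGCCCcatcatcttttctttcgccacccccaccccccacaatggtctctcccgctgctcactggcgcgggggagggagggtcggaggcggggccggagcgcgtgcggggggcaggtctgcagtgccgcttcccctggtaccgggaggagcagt
The GC box of Sv2a lies 154 bases before the start. In the 250 bases before a start, GGGCGG was found on either strand in 32.7% of 32851 promoters. Sv2a's window held 13 CpG dinucleotides and 66% GC, and Chodl's full window of 250 bases held 5 CpG and 52% GC, against medians of 6 CpG and 52.4% GC over all promoters. The estrogen-related receptor element TCAAGGTCA, which proteins of the family of Esrrb and Esrrg bind, was in 0.387% of all promoters and in 0 of the 11 member windows that the table holds for Chodl, Sv2a, Esrrb, Esrrg, Htr1d and Rbfox3. The other letters searched, on both strands, were TATAAA (12.4% of promoters, 1 Esrrg window among the members) and CCAAT (33.8% of promoters, and windows of Esrrg, Htr1d, Rbfox3 and Esrrb).

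The values are linear signal intensities that had been scaled to a common level on every array. Median signals were 274 to 366 on SOD1 motor neuron arrays, against 269 to 313 for wild-type motor neurons and 556 to 583 for cord. Captured arrays carried little signal from the 5′ end of control transcripts: the log2 ratio of 3′ over 5′ signal for Gapdh was 4.49 ± 0.15 in SOD1 motor neurons, 4.03 ± 0.44 in wild-type motor neurons and -0.28 ± 0.01 in cord (SD, n = 3 each). For Actb this ratio was 5.28 ± 0.59, 4.53 ± 0.41 and 0.66 ± 0.03 in the same groups, highest on SOD1 replicate 2 at 5.84. The part of this 3′ bias in the results below was not tested. Background was set per array at the 95th percentile of 27 Bacillus subtilis probe sets and was 131 to 244 signal units.

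Most motor neuron identity genes were higher in captured cells. Of 10 identity and cholinergic genes tested, 8 were higher in wild-type motor neurons than in cord and 0 lower, with a median log2 change of 1.5, and the same counts, 8 and 0, held for SOD1 motor neurons against cord, with a median of 1.20. Mnx1, a homeobox factor that fixes the motor neuron fate, was higher by 4.49 on the log2 scale in wild-type motor neurons (SE 0.17, adjusted p = 2.54e-07), and Prph, a neurofilament-class protein of motor and sensory neurons, by 3.49 (SE 0.23, adjusted p = 2.64e-06). The defining enzyme gene Chat averaged 673 ± 168 in wild-type motor neurons and 424 ± 24 in cord (SD, n = 3 each), and its log2 change of 0.61 did not pass (adjusted p = 0.0816). Lhx3 did not pass either, at 0.79 (adjusted p = 0.0672). Under quantile normalization and under centring both passed as higher, and 10 of the 10 genes did in each captured group.

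The first question was which class markers stood above whole cord in captured motor neurons. Of the 17 probe sets, 15 lay above the filter on low values and were tested among 27022, and 1 Esrrb and 1 Esrrg probe set did not. In wild-type motor neurons 6 member probe sets were higher than in cord, 2 were lower and 7 did not pass an adjusted p of 0.05 (limma). All 4 fast probe sets were among those that were higher. Over all probe sets tested 65.5% passed, 24% higher and 41.5% lower. In SOD1 motor neurons 6 were higher than in cord, 3 lower and 6 did not pass, where 62.1% of all probe sets passed, 21.9% higher and 40.2% lower. The median log2 change was 0.13 over the members and -0.35 over all tested for wild-type motor neurons against cord, and 0.33 and -0.37 for SOD1 motor neurons against cord. Counted by arrays that do not overlap, 7 members were higher and 2 lower than cord in wild-type motor neurons, where 71.9% of all probe sets did not overlap, 26.4% higher and 45.4% lower. In SOD1 motor neurons these were 6 and 3 members, against 70% of all probe sets, 25.1% higher and 44.9% lower. Both comparisons use the same 3 cord arrays. In bulk samples, fewer cells of a type and less RNA per cell cannot be told apart.

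The balance of all probe sets depended on the scaling, while that of the members stayed on the higher side. For wild-type motor neurons against cord, 6494 probe sets were higher and 11206 lower with the deposited scaling, 9658 and 7688 after quantile normalization, and 12942 and 5269 after centring each array on its median. For SOD1 motor neurons the same 3 scalings gave 5925 higher and 10859 lower, 9009 and 7364, and 11599 and 5158. Over all probe sets tested the median change, -0.35 for wild-type motor neurons with the deposited scaling, was 0.13 after quantile normalization and 0.56 after centring, and for SOD1 motor neurons it was 0.12 and 0.48. Among the members, 7 were higher and 1 lower after quantile normalization and 9 and 1 after centring for wild-type motor neurons, and 9 and 2 and then 9 and 1 for SOD1 motor neurons.

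**Figure D1:**
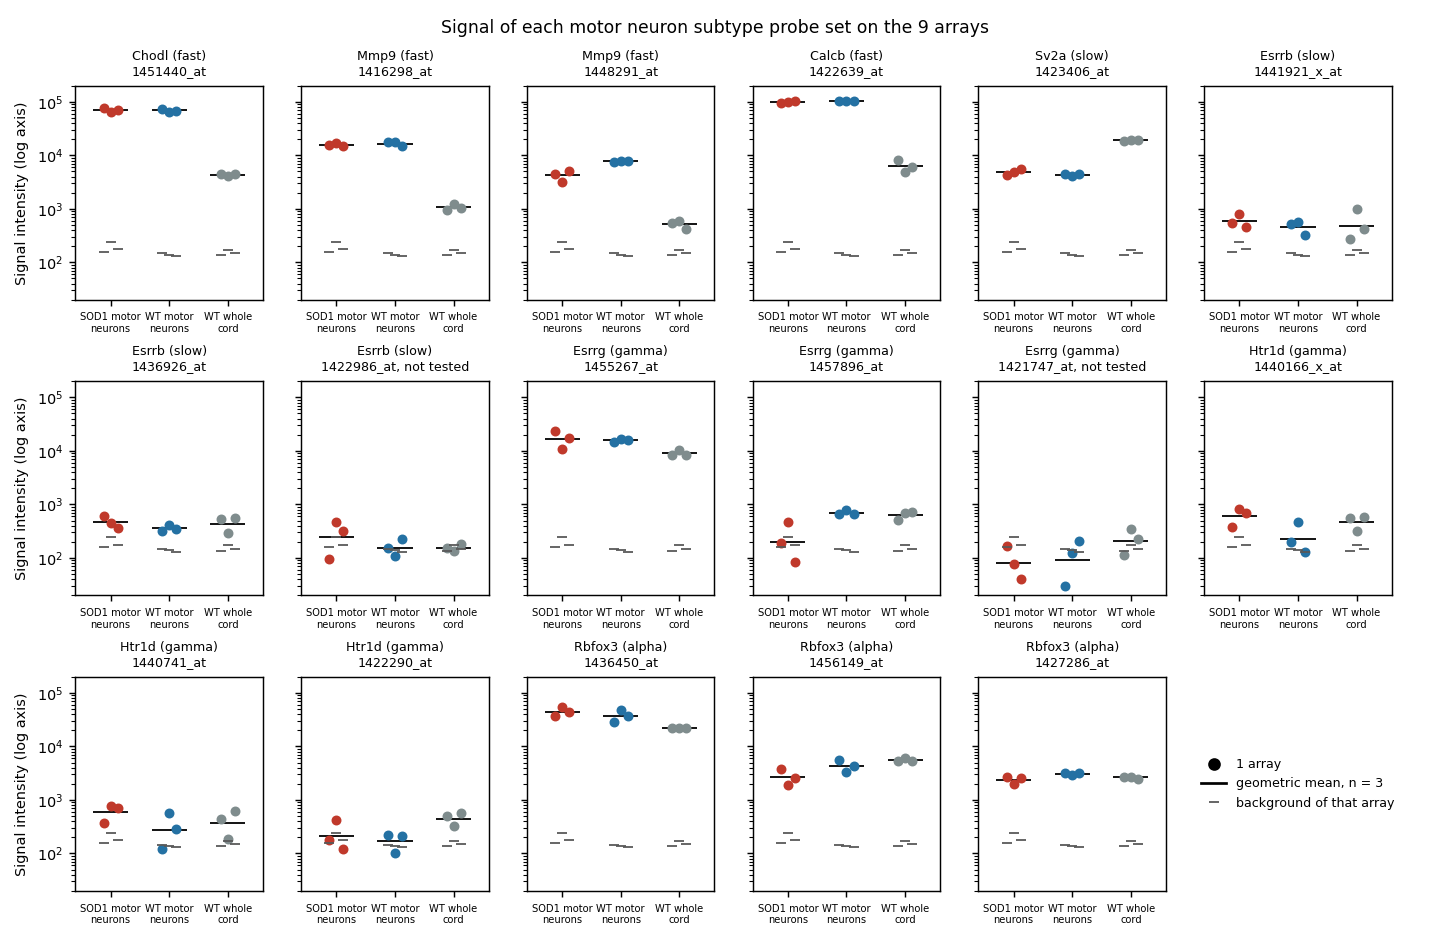
Signal of the 17 member probe sets on each of the 9 arrays (log axis, linear signal intensity units), with SOD1 motor neurons left of wild-type motor neurons and wild-type cord at the right; lines are geometric means of 3 arrays and short ticks mark each array's background level. The 4 fast probe sets stand well above cord in both captured groups, Sv2a stands below cord, and the Esrrb and Htr1d probe sets reach no more than 1006 on any array.

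The fast markers were the members that differed most from cord. Chodl, a membrane protein with a C-type lectin domain, had signals of 75305, 64125 and 71549.9 in SOD1 motor neurons, 73781, 65308 and 68657 in wild-type motor neurons, and 4575, 4069.9 and 4431 in cord. The captured arrays all stood far above the cord arrays, and the 2 captured groups overlapped. Chodl was 15.8-fold higher in wild-type motor neurons than in cord (log2 change 3.98 ± 0.08, SE, adjusted p = 4.23e-08), and 23 of the probe sets tested had a larger positive change. Against cord its log2 change in SOD1 motor neurons was 4.0 ± 0.11 (SE, adjusted p = 3.74e-07).

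Calcb encodes the beta form of calcitonin gene-related peptide (CGRP), a neuropeptide that motor neurons release at the muscle. Its signals were 96509, 99797 and 105401 in SOD1 motor neurons, 101497, 103441 and 101659 in wild-type motor neurons, and 8149.7, 4798 and 6085 in cord. The groups separated from cord with no overlap, and the cord arrays spread more than the captured ones on the log2 scale. Calcb was 16.4-fold higher in wild-type motor neurons (log2 change 4.04 ± 0.16, SE, adjusted p = 3.32e-07) and 16.2-fold higher in SOD1 motor neurons (4.02 ± 0.18, SE, adjusted p = 1.58e-06) than in cord.

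Mmp9, a secreted protease of the extracellular matrix, was read by 2 probe sets. Probe set 1416298_at had signals of 15591, 16889.9 and 15179.7 in SOD1 motor neurons, 17468, 17430 and 15016 in wild-type motor neurons, and 962, 1236 and 1060.1 in cord. Probe set 1448291_at had signals of 4497, 3217 and 5168 in SOD1 motor neurons, 7509.8, 7697 and 7834 in wild-type motor neurons, and 538, 602 and 412 in cord. Both were far above cord in every captured array, but the second was lower on all SOD1 arrays than on all wild-type motor neuron arrays, while the first overlapped. In wild-type motor neurons they were 15.1-fold (log2 change 3.92 ± 0.13, SE, adjusted p = 1.84e-07) and 14.5-fold (3.86 ± 0.17, SE, adjusted p = 3.98e-07) higher than in cord. In SOD1 motor neurons they were 14.4-fold (3.85 ± 0.14, SE, adjusted p = 7.73e-07) and 7.96-fold (2.99 ± 0.23, SE, adjusted p = 1.49e-05) higher than in cord.

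The slow marker Sv2a went the other way. Sv2a encodes a glycoprotein of synaptic vesicles that many neurons make, and its signals were 4254, 4952 and 5648 in SOD1 motor neurons, 4459, 4068 and 4433 in wild-type motor neurons, and 18746, 19708 and 19353 in cord. All captured arrays lay below all cord arrays. It was 4.45-fold lower in wild-type motor neurons (log2 change -2.15 ± 0.08, SE, adjusted p = 3.02e-07) and 3.90-fold lower in SOD1 motor neurons (-1.97 ± 0.13, SE, adjusted p = 5.85e-06) than in cord. Across the alternatives the wild-type change ran between -2.33 and -1.25 and stayed past the threshold.

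Esrrb, an orphan nuclear receptor known from slow motor neurons, was dim. Probe set 1441921_x_at gave 540.2, 808 and 449 in SOD1 motor neurons, 524, 564 and 325 in wild-type motor neurons, and 271, 1006 and 425 in cord. Probe set 1436926_at gave 607, 457 and 355 in SOD1 motor neurons, 315, 406 and 349.8 in wild-type motor neurons, and 528, 294 and 546 in cord. All 9 arrays were above background for both, the groups overlapped, and no change passed. The log2 changes of wild-type motor neurons against cord were -0.09 ± 0.47 (SE, adjusted p = 0.876) and -0.30 ± 0.34 (SE, adjusted p = 0.466), and both signs turned under quantile normalization and centring. The untested probe set 1422986_at was above background on 2 arrays of each group and ranged from 95.9 to 468 in SOD1 motor neurons, 109 to 223 in wild-type ones and 134 to 182 in cord.

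**Figure D2:**
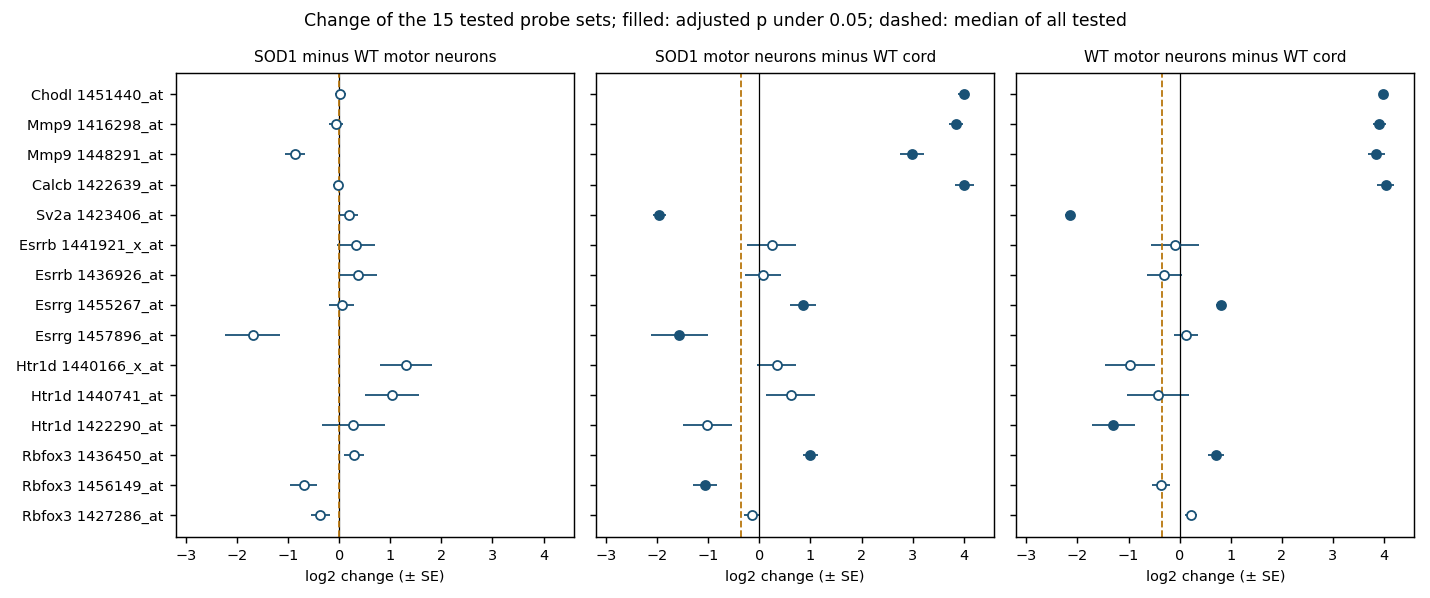
Log2 change (± SE) of the 15 tested member probe sets, in panels for SOD1 motor neurons minus wild-type motor neurons, SOD1 motor neurons minus cord and wild-type motor neurons minus cord; filled points passed an adjusted p of 0.05 and the dashed line is the median of all 27022 probe sets tested. Chodl, Mmp9 and Calcb lie between 2.99 and 4.04 against cord, Sv2a lies near -2, and no point is filled between the 2 captured groups.

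The gamma marker Esrrg, an estrogen-related nuclear receptor, was bright on 1 of its 3 probe sets. Probe set 1455267_at had signals of 23526, 10653 and 17401 in SOD1 motor neurons, 14898, 16424 and 16174 in wild-type motor neurons, and 8428, 10326 and 8399.8 in cord. Captured arrays all lay above cord arrays, SOD1 replicate 2 only just. It was 1.75-fold higher in wild-type motor neurons than in cord (log2 change 0.81 ± 0.10, SE, adjusted p = 0.000157) and 1.81-fold higher in SOD1 motor neurons (0.86 ± 0.26, SE, adjusted p = 0.0188). The SOD1 call was lost without SOD1 replicate 3 (adjusted p = 0.0703), cord replicate 1 (0.0572) or cord replicate 3 (0.0575).

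The other Esrrg probe sets read differently. Probe set 1457896_at gave 187, 478 and 83.6 in SOD1 motor neurons, 651, 770.2 and 674 in wild-type motor neurons, and 517, 694 and 709 in cord. All SOD1 arrays were below all others, and 2 of the 3 were above background. It was 2.97-fold lower in SOD1 motor neurons than in cord (log2 change -1.57 ± 0.55, SE, adjusted p = 0.0354), a call lost after quantile normalization (-0.73, adjusted p = 0.265) and after centring (-0.72, adjusted p = 0.234). That call was also lost without any 1 of the cord arrays and without SOD1 replicate 1 or 3. In wild-type motor neurons its change against cord was 0.13 ± 0.24 (SE, adjusted p = 0.644) with the deposited scaling and passed as higher after quantile normalization (1.02, adjusted p = 0.00368) and centring (1.04, adjusted p = 0.0040). The untested 1421747_at was above background on 1 SOD1, 1 wild-type motor neuron and 2 cord arrays.

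Htr1d, a serotonin receptor known from gamma motor neurons, was dim on all 3 of its probe sets. Probe set 1440166_x_at gave 379, 829.6 and 690.3 in SOD1 motor neurons, 200.3, 465 and 130.04 in wild-type motor neurons, and 568, 315 and 589 in cord. Probe set 1440741_at gave 368, 780.1 and 692 in SOD1 motor neurons, 124, 574 and 284 in wild-type motor neurons, and 448, 188 and 612 in cord. For both, the wild-type motor neuron arrays included the lowest values and 2 of the 3 were above background, with overlap between groups. Neither passed in any comparison in the fit used here. Both passed as higher in SOD1 motor neurons than in cord after quantile normalization (log2 changes 1.22 and 1.49, adjusted p = 0.0146 and 0.0179) and after centring (1.18 and 1.46, adjusted p = 0.0148 and 0.0180). In wild-type motor neurons against cord, 1440166_x_at passed as lower with array weights (-1.61, adjusted p = 0.00199) and without wild-type motor neuron replicate 2 (-1.44, adjusted p = 0.0158).

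The third Htr1d probe set, 1422290_at, gave 179.7, 413 and 123 in SOD1 motor neurons, 224, 103 and 211 in wild-type motor neurons, and 493, 324 and 566 in cord. Wild-type motor neurons lay below cord on all arrays, and SOD1 motor neurons overlapped cord. Only 2 of the 3 arrays were above background in each captured group, against all 3 in cord. With values this close to background, the probe set was 2.46-fold lower in wild-type motor neurons (log2 change -1.30 ± 0.43, SE, adjusted p = 0.0246). That call was lost after quantile normalization (adjusted p = 0.365), after centring (0.450), and without cord replicate 1 (0.0882) or 3 (0.111). Its SOD1 change, -1.02 ± 0.49 (SE, adjusted p = 0.0988), passed as lower with array weights (adjusted p = 0.00283) and without SOD1 replicate 2.

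Rbfox3, the RNA-binding protein NeuN, differed between its own probe sets. Probe set 1436450_at had signals of 36635, 54632 and 44685 in SOD1 motor neurons, 28513, 47391 and 36819 in wild-type motor neurons, and 22335, 22230.4 and 22504.6 in cord. All captured arrays were above all cord arrays, and replicate 2 was the highest in both captured groups. It was 2.0-fold higher in SOD1 motor neurons (log2 change 1.0 ± 0.14, SE, adjusted p = 0.000428) and 1.64-fold higher in wild-type motor neurons (0.72 ± 0.16, SE, adjusted p = 0.00365) than in cord, the wild-type call being lost after quantile normalization (adjusted p = 0.0933).

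Of the other Rbfox3 probe sets, neither passed as higher than cord with the deposited scaling and the fit used here. Probe set 1456149_at gave 3751, 1914 and 2590.4 in SOD1 motor neurons, 5521, 3398 and 4295 in wild-type motor neurons, and 5319, 6011 and 5405 in cord. All SOD1 arrays were below all cord arrays, a change of -1.07 ± 0.23 on the log2 scale (SE, adjusted p = 0.00357) that was lost after centring (adjusted p = 0.559). In wild-type motor neurons its change was -0.37 ± 0.17 (SE, adjusted p = 0.0885). It passed as higher after centring (0.54, adjusted p = 0.0477), but as lower with array weights and without wild-type motor neuron replicate 1. Probe set 1427286_at gave 2648, 2005 and 2561 in SOD1 motor neurons, 3208, 2892 and 3177 in wild-type motor neurons, and 2692, 2737 and 2473 in cord. The wild-type motor neuron arrays were above all cord arrays, a change of 0.23 ± 0.12 (SE, adjusted p = 0.1205) that did not pass, and it passed as higher after quantile normalization (0.73, adjusted p = 0.000861), after centring (1.14, adjusted p = 0.000121) and with array weights (0.28, adjusted p = 0.0226). Its change in SOD1 motor neurons against cord, -0.14 ± 0.16 (SE, adjusted p = 0.460), passed with the opposite sign after quantile normalization (0.43, adjusted p = 0.0374) and centring (0.71, adjusted p = 0.0262).

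**Figure D3:**
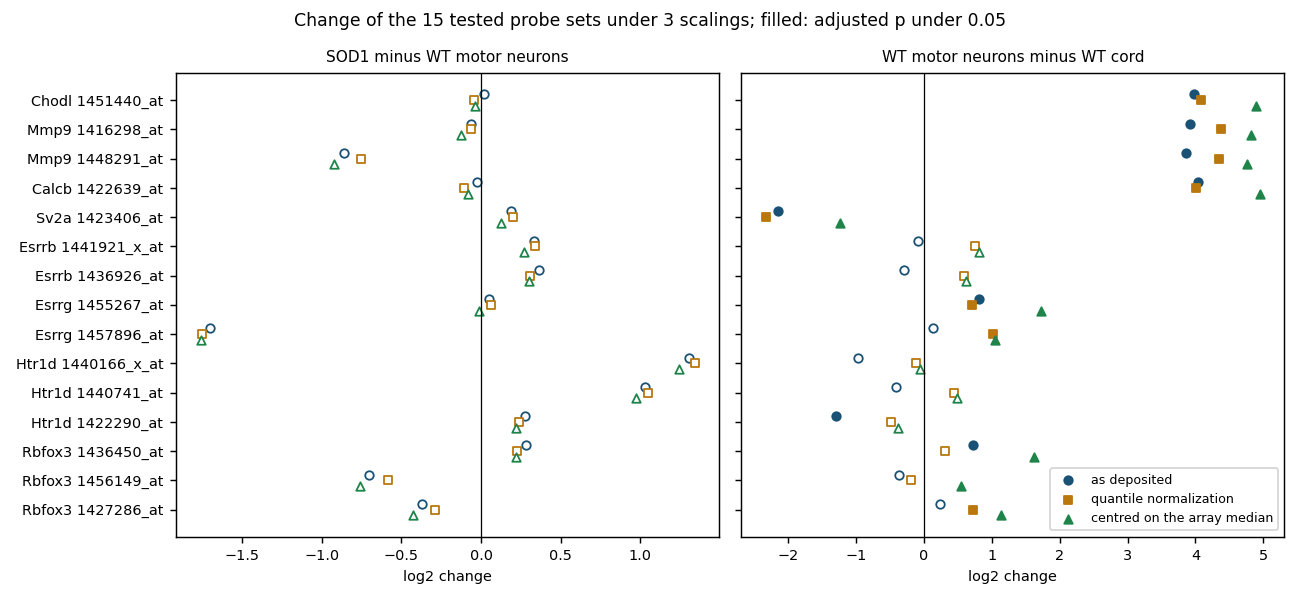
Log2 change of the tested member probe sets under 3 scalings (as deposited, quantile normalized, each array centred on its median), for SOD1 motor neurons minus wild-type motor neurons and for wild-type motor neurons minus cord. Against cord, centring moves all 15 members up by 0.91, and quantile normalization moves 11 up and 4 down (Sv2a, Calcb, Esrrg 1455267_at and Rbfox3 1436450_at); Chodl, Mmp9 and Calcb stay at 3.86 or above and Sv2a at -1.25 or below, and in the comparison of the captured groups no member moves by more than 0.11.

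The second question was whether class markers differed between SOD1 and wild-type motor neurons. Of the 15 member probe sets, 0 passed an adjusted p of 0.05 with limma. Over all 27022 probe sets 60 passed, 0.222%, with 41 higher (0.152%) and 19 lower (0.0703%). The 60 became 11, 13 and 6 without wild-type motor neuron replicate 1, 2 or 3, and 7 without SOD1 replicate 3. At an unadjusted limma p under 0.05 there were 4 of the 15 member probe sets and 4117 of the 27022 probe sets tested. These 4 were 1 probe set each of Mmp9, Esrrg, Htr1d and Rbfox3, and the other tested probe sets of these genes were not under 0.05. The median log2 change was 0.05 over the members and -0.01 over all. The arrays of the groups did not overlap for 3 members, all lower in SOD1 motor neurons, and for 0 members in the higher direction, where 22.3% of all probe sets did not overlap, 11.7% lower and 10.5% higher.

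Fast markers other than one Mmp9 probe set had changes close to 0. The log2 change of SOD1 over wild-type motor neurons was 0.02 ± 0.12 for Chodl (SE, adjusted p = 0.952), -0.02 ± 0.10 for Calcb (adjusted p = 0.934) and -0.06 ± 0.13 for Mmp9 at 1416298_at (adjusted p = 0.855). At 1448291_at Mmp9 had a change of -0.86 ± 0.19 (SE, adjusted p = 0.109), lower on all SOD1 arrays, which did not pass. This probe set passed where all 9 arrays were fitted together (adjusted p = 0.0373), with the replicate block (0.0405) and with array weights (-0.69, adjusted p = 0.00592). A p above the threshold does not show that the levels were alike.

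Among the other classes the larger differences were in dim probe sets or in single probe sets of a gene. Sv2a changed by 0.19 ± 0.17 (SE, adjusted p = 0.637) and the bright Esrrg probe set by 0.05 ± 0.24 (SE, adjusted p = 0.947). Esrrg at 1457896_at was lower on all SOD1 arrays (-1.70 ± 0.54, SE, adjusted p = 0.183). Htr1d had changes of 1.30 ± 0.51 (SE, adjusted p = 0.263), 1.03 ± 0.54 (adjusted p = 0.389) and 0.28 ± 0.61 (adjusted p = 0.864) at its 3 probe sets. For Rbfox3 the change was 0.28 ± 0.20 at 1436450_at (SE, adjusted p = 0.528), -0.70 ± 0.27 at 1456149_at (adjusted p = 0.256) and -0.37 ± 0.19 at 1427286_at (adjusted p = 0.390), the last lower on all SOD1 arrays. With array weights 5 member probe sets passed, where 5252 of all 27022 did. Htr1d was higher at 1440166_x_at (1.91, adjusted p = 0.0067) and 1440741_at (1.15, adjusted p = 0.0411). Esrrg at 1457896_at (-2.38, adjusted p = 0.00291), Rbfox3 at 1456149_at (-0.71, adjusted p = 0.0135) and Mmp9 at 1448291_at were lower.

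Ratios between probe sets of the same gene were set side by side for 3 genes, and no ratio passed a test. The log2 ratio of 2 probe sets on the same array cancels that array's scaling factor, the pseudocount aside. These pairs were chosen after their values were seen, and 12 two-sided exact permutation tests were run on them, in which 3 arrays against 3 cannot give a p below 0.1. For Mmp9, 1448291_at over 1416298_at was -1.79, -2.39 and -1.55 in SOD1 motor neurons, -1.22, -1.18 and -0.94 in wild-type motor neurons, and -0.82, -1.01 and -1.32 in cord. The SOD1 arrays lay below all others. The SOD1 minus wild-type motor neuron difference was -0.80 (exact p = 0.1, 0.171 after Benjamini-Hochberg adjustment over the 12 tests), and the wild-type motor neuron minus cord difference was -0.06 (exact p = 0.8). Within SOD1 motor neurons the Mmp9 ratio was lowest on replicate 2, which had the highest 3′ over 5′ ratio for both control transcripts. Within wild-type motor neurons it was lowest on replicate 1, which had the lowest 3′ over 5′ ratios of its group. The part of 3′ bias in the Mmp9 ratio was not tested.

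For Rbfox3, 1456149_at over 1436450_at was -3.28, -4.82 and -4.10 in SOD1 motor neurons, -2.36, -3.79 and -3.09 in wild-type motor neurons, and -2.07, -1.88 and -2.05 in cord. The captured groups overlapped and both lay below cord. Each SOD1 array lay below the wild-type motor neuron array of the same number. No label says that same-numbered arrays are paired, and the permutation tests did not use the numbers. The difference from cord was -2.07 in SOD1 motor neurons and -1.08 in wild-type motor neurons (exact p = 0.1 each, 0.171 adjusted), and -0.98 between the captured groups (exact p = 0.2, 0.24 adjusted). Over the 6 captured arrays, this ratio was lowest on replicate 2 of each group, which also had the highest 3′ over 5′ ratio of its group for both control transcripts. The part of that bias in the ratio was not tested. For Esrrg, 1457896_at over 1455267_at was -6.82, -4.42 and -7.39 in SOD1 motor neurons, -4.47, -4.38 and -4.54 in wild-type motor neurons, and -3.97, -3.86 and -3.53 in cord. SOD1 replicate 2 sat with the wild-type arrays while the other two SOD1 arrays sat far below, and the SOD1 minus wild-type motor neuron difference was -1.75 (exact p = 0.3, 0.327 adjusted).

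**Figure D4:**
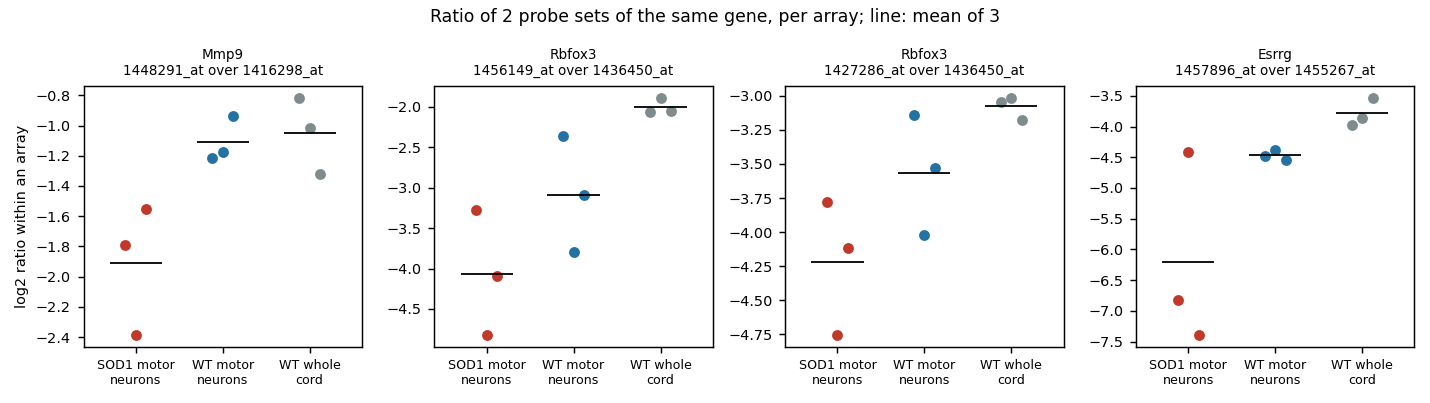
Log2 ratio of 2 probe sets of the same gene on each array, for Mmp9, both Rbfox3 pairs and Esrrg, with SOD1 motor neurons at the left, wild-type motor neurons in the middle and cord at the right. For Mmp9 the SOD1 arrays (-2.39 to -1.55) lie below both other groups, while for Rbfox3 1456149_at over 1436450_at both captured groups lie below cord; for Rbfox3 1427286_at, 1 wild-type motor neuron array overlaps cord.

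Other markers of the same classes, from a list, were counted in the same way. For this and the other lists, the shares over all probe sets tested were 24% higher and 41.5% lower for wild-type motor neurons against cord. For SOD1 motor neurons against cord they were 21.9% and 40.2%. These shares hold for the deposited scaling only. Of the 27022 probe sets, 9658 were higher and 7688 lower in wild-type motor neurons after quantile normalization, and 12942 and 5269 after centring. For SOD1 motor neurons these were 9009 and 7364, and 11599 and 5158. List counts under those scalings are to be read beside these numbers. Of 4 further alpha markers tested, 2 were higher and 0 lower in wild-type motor neurons than in cord, Kcnj14, an inward-rectifier potassium channel, by 4.73 ± 0.12 (log2, SE, adjusted p = 8.12e-08), and Kcna1 by 0.79 ± 0.08 (SE, adjusted p = 3.38e-05). Of 3 further fast markers 1 was higher and 1 lower: the potassium channel subunit Kcng4 changed by 2.70 ± 0.12 (SE, adjusted p = 4.68e-07) and Dlk1, a Notch-related transmembrane protein, by -4.44 ± 0.43 (SE, adjusted p = 2.86e-05). Dlk1 averaged 751 ± 840 in SOD1 motor neurons, 182 ± 105 in wild-type motor neurons and 3835 ± 268 in cord (SD, n = 3 each). Of 2 further slow markers tested 1 was higher and 0 lower, the synaptic vesicle gene Sv2c (1.13 ± 0.24, SE, adjusted p = 0.00271).

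Of 4 further gamma markers tested, 2 were higher and 1 lower in wild-type motor neurons than in cord. Gfra1, a co-receptor of the trophic factor GDNF, was higher by 2.40 ± 0.13 (log2, SE, adjusted p = 9.31e-07) and the serotonin receptor Htr1f by 1.36 ± 0.33 (SE, adjusted p = 0.0055), and the secreted ligand Wnt7a was lower (-0.96 ± 0.37, SE, adjusted p = 0.0473), a call that held in 5 of 16 alternatives and was lost without any 1 of the cord arrays and without wild-type motor neuron replicate 1 or 3. In SOD1 motor neurons against cord the counts for alpha, slow and gamma markers were the same, and 2 of 3 further fast markers were higher and 1 lower. For wild-type motor neurons the gamma counts became 3 higher and 0 lower under both other scalings, and the alpha counts 2 and 1 after quantile normalization and 3 and 0 after centring. The fast counts became 2 and 1 under both. More of all probe sets were also higher under both scalings. Between SOD1 and wild-type motor neurons 0 of the 13 further class markers tested passed.

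Of 5 tested genes for CGRP receptors and related peptides, 3 were higher and 2 lower in wild-type motor neurons than in cord. Calcrl and Ramp1, which together form the CGRP receptor, were lower by -2.82 ± 0.40 and -1.58 ± 0.10 on the log2 scale (SE, adjusted p = 0.00029 and 1.90e-06), and Crcp, a protein that helps couple that receptor, was higher by 1.11 ± 0.11 (SE, adjusted p = 2.44e-05). Ramp2, which turns Calcrl into an adrenomedullin receptor, was the 1 list gene that passed between SOD1 and wild-type motor neurons. Its signal was 3446 ± 380 in SOD1 motor neurons and 6938 ± 417 in wild-type motor neurons (SD, n = 3 each), a 2.01-fold lower level (-1.01 ± 0.17, SE, adjusted p = 0.0474). That call held in 9 of 17 alternatives, with adjusted p between 0.000506 and 0.339. It was lost after quantile normalization (adjusted p = 0.067), after centring (0.116) and without the intensity trend (0.186). Leaving out SOD1 replicate 1 or 3, or any 1 of the 3 wild-type motor neuron arrays, also lost it.

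Most of the inhibitors and relatives of Mmp9 were lower than in cord. Of 7 tested, 0 were higher and 6 lower in wild-type motor neurons, with a median log2 change of -2.23, where 41.5% of all probe sets were lower. In SOD1 motor neurons 0 were higher and 5 lower, with a median of -1.15, where 40.2% of all probe sets were lower, and Timp1 did not pass (-0.84, adjusted p = 0.136). The tissue inhibitor Timp3 changed by -2.29 ± 0.19 (SE, adjusted p = 1.07e-05) and the related protease gene Mmp14 by -2.95 ± 0.26 (SE, adjusted p = 1.46e-05). Timp2 averaged 32904 ± 2475 in wild-type motor neurons and 28999 ± 1191 in cord (SD, n = 3 each), and did not pass (0.18, adjusted p = 0.0760). For wild-type motor neurons the counts were 0 and 6 after quantile normalization, where Timp1 no longer passed and Timp2 passed as lower (-0.27), and 1 and 4 after centring, where Timp1 and Lrp1 no longer passed and Timp2 passed as higher (1.09). Timp1 was also lost without cord replicate 1 or 3. For SOD1 motor neurons they were 0 and 5, and 1 and 3.

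Of 8 synaptic vesicle and estrogen-related receptor relatives tested, 5 were higher and 3 lower in wild-type motor neurons than in cord, 5 and 2 after quantile normalization and 5 and 1 after centring. For SOD1 motor neurons 5 were higher and 2 lower, then 4 and 1, and 6 and 1. Sv2b, the paralogue of Sv2a, averaged 53754 ± 2283 in SOD1 motor neurons, 44276 ± 3021 in wild-type motor neurons and 9482 ± 639 in cord (SD, n = 3 each), so it was 4.66-fold higher in wild-type motor neurons (log2 change 2.22 ± 0.09, SE, adjusted p = 2.82e-07) where Sv2a was lower. The calcium sensors of release differed likewise: Syt2 was higher (0.84 ± 0.13, SE, adjusted p = 0.000575) and Syt1 lower (-3.50 ± 0.11, SE, adjusted p = 1.66e-07). Esrra, the third estrogen-related receptor, was higher by 1.11 ± 0.25 (SE, adjusted p = 0.00369), as Esrrg was at 1455267_at. Ppargc1a, a coactivator of these receptors, had a change of -0.78 that passed as lower with the deposited scaling and was 0.12 after centring.

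Of 8 other serotonin receptor genes tested, 4 were higher and 2 lower in wild-type motor neurons than in cord. Htr3a, the ion channel receptor, was higher by 2.20 ± 0.27 (log2, SE, adjusted p = 0.000131) and Htr1a lower (-3.65 ± 0.53, SE, adjusted p = 0.000323). In SOD1 motor neurons against cord 2 were higher and 2 lower, and Htr3a did not pass (0.72 ± 0.65, SE, adjusted p = 0.355). Htr3a passed there as higher after quantile normalization (1.56, adjusted p = 0.0478) and after centring (1.57, adjusted p = 0.0430). Receptors and relatives of osteopontin, the product of Spp1, gave 1 higher and 6 lower of 8 in each captured group. Of all probe sets, 41.5% were lower in wild-type and 40.2% in SOD1 motor neurons. In each group the counts were 1 and 4 after quantile normalization and 1 and 3 after centring. In wild-type motor neurons the adhesion receptor Cd44 was lower (-4.65 ± 0.41, SE, adjusted p = 1.62e-05) and the integrin subunit Itgb5 higher (1.10 ± 0.12, SE, adjusted p = 6.83e-05). In wild-type motor neurons Itga4 and Itgb3 were lost under both scalings, Itga4 with a change of 0.20 and 0.19, and Itgb1 after centring (adjusted p = 0.0876). Itga4 and Itgb3 were also lost without cord replicate 1, and Itga4 without cord replicate 3. Of the 2 relatives of Rbfox3, Rbfox1 was higher in wild-type motor neurons (0.47 ± 0.10, SE, adjusted p = 0.00256, and adjusted p = 0.445 after quantile normalization) and Rbfox2 did not pass (-0.28, adjusted p = 0.374). In SOD1 motor neurons against cord Rbfox2 passed as lower (-0.65 ± 0.24, SE, adjusted p = 0.0405). That call was lost after quantile normalization (adjusted p = 0.347) and after centring (0.498).

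Most markers of other cell types were lower in captured cells than in cord, though some stayed well above background. Of microglial markers 11 of 11 tested were lower in both captured groups, with summed signals per array of 5400.3 to 6522 in SOD1 motor neurons, 4007 to 4918 in wild-type ones and 55119.5 to 60726 in cord, and 2 of 12 genes in SOD1 and 3 of 12 in wild-type motor neurons had no array above background. Astrocyte markers were lower for 7 of 8 in both groups, all but S100b (0.22, adjusted p = 0.0697 in SOD1 and 0.13, adjusted p = 0.115 in wild-type motor neurons), with sums of 155009 to 161534, 135796 to 148959 and 317954 to 353531 in SOD1 motor neurons, wild-type motor neurons and cord. For oligodendrocytes it was 7 of 8 in SOD1 motor neurons, where Mbp had -0.01 (adjusted p = 0.935), and 8 of 8 in wild-type ones, with sums of 303018 to 324037, 250248 to 267628 and 577161 to 676769 in those groups. Interneuron markers were lower for 9 of 10 in SOD1 motor neurons, where Slc32a1 did not pass (adjusted p = 0.163), and 10 of 10 in wild-type ones, and summed to 20570.3 to 35572, 20961 to 23955 and 131719 to 139779. Vascular and meningeal markers, 8 of 8 lower in both groups, summed to 7049 to 8598, 6494 to 9643 and 61628 to 151772. After centring, the lower counts in wild-type motor neurons were 11 of 11 microglial, 6 of 8 astrocyte, 5 of 8 oligodendrocyte, 8 of 10 interneuron and 7 of 8 vascular markers. Mbp (0.59) and S100b (1.03) then passed as higher, and Aldoc, Cnp, Mobp, Slc6a5, Slc32a1 (0.16, adjusted p = 0.308) and Kdr (adjusted p = 0.0503) no longer passed. In SOD1 motor neurons the lower counts after centring were 11, 6, 5, 8 and 8 in the same order, and Mbp (0.83) and S100b (1.07) passed as higher. Between SOD1 and wild-type motor neurons 0 of these markers passed. The microglial, astrocyte and oligodendrocyte sums were nevertheless higher on every SOD1 array than on every wild-type motor neuron array. Interneuron and vascular sums overlapped between the captured groups. The part of these markers in the member results was not tested.

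Likeness of pattern was measured as the root mean square difference between log2 values centred on their mean over the 9 arrays, among 12981 other genes. It is a description, dominated by the difference between captured arrays and cord that all points share. The gene nearest to Chodl was Calcb (0.17), followed by Mmp9 (0.18) and Plxdc1 (0.23). Mmp9 had Plxdc1 (0.18), Chodl (0.18) and Glyat (0.20) as its nearest, and Calcb had Chodl (0.17), Plxdc1 (0.24) and Cks2 (0.26).

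The nearest patterns of the remaining members held no other member. Sv2a was nearest to Il18 (0.063), Hipk1 (0.096) and Higd1b (0.13). Esrrg was nearest to Mtcp1 (0.10), Chic1 (0.11) and Prune1 (0.13), and Rbfox3 to Prkar2a (0.10), Rps18 (0.11) and Macrod1 (0.11). The dim members had no close neighbour: the nearest to Esrrb was Upk1a (0.33) and the nearest to Htr1d was Noxred1 (0.28).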

How the data were processed

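The deposited values were linear signal intensity per probe set for 9 arrays. Their trimmed mean is 2500 on every array (2% off each end), so the authors had scaled them before deposit. No source used here names the software that made them. Groups came from the sample descriptions and replicate numbers from the titles. Members and gene lists were chosen with earlier results of these data known.

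After removal of 64 control probe sets, 20.3 was added to each deposited intensity (the 10th percentile) and log2 was taken, so folds of dim probe sets are understated. The deposited scaling was kept. Probe sets whose mean of group log2 means exceeded the 40th percentile were tested (27022 of 45101). Of all probe sets, 34945 were annotated to 1 gene, 932 to several, and 9160 had no gene listed, and 0 of those with several included a member.

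Each comparison was fitted on its own 6 arrays with lmFit and eBayes (intensity trend) of limma 3.58.1 in R 4.3.3. Tests were two-sided, adjusted after Benjamini-Hochberg over all probe sets tested, with a threshold of 0.05. The fits were also run on simulated data with independent noise and few changed probe sets. Most probe sets differed from cord in the real data, so that simulation cannot check the calls against cord. Every member probe set is described. List genes are represented by their probe set of highest mean. The naming rule took from each list up to 4 genes that passed with the largest change in a comparison (2 of highest mean where none passed), and the 3 nearest patterns per member. Chat, Lhx3, Timp2, Syt2, Ppargc1a, Itgb5, Itga4, Mbp, Cnp, Mobp, Aldoc, S100b, Slc6a5, Slc32a1 and Kdr fall outside the rule and were chosen after their values were seen. Sequences are from RefSeq for GRCm38.p6.

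Alternatives changed the scaling (quantile normalization, or each array centred on its median over all probe sets), the filter (none, or the 60th percentile), the pseudocount (by a factor of 4 either way) and the fit. Fits were repeated over all 9 arrays together, without the trend, with array weights, with replicate number as block, and with each array left out. Raising values to background was added after the data were seen.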

Additional observations from a re-analysis of the deposited data

How the results depend on the processing

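Chodl, Calcb and both Mmp9 probe sets stayed higher, and Sv2a lower, than cord in both captured groups under every alternative run. With 3 arrays a group and dim Esrrb and Htr1d probe sets, small changes are not detectable. For SOD1 minus wild-type motor neurons, the 60 probe sets called became 32 after quantile normalization, 20 after centring, 1184 with all 9 arrays in 1 fit, 3 without an intensity trend, 5252 with array weights, 443 with the replicate block, 97 with values raised to background, and 6 to 71 without 1 array. Array weights put most weight on replicate 3 of each captured group (4.32 in wild-type and 2.83 in SOD1 motor neurons). Member probe sets called, 0, became 1 with all 9 arrays, 1 with the replicate block (Mmp9 at 1448291_at, adjusted p = 0.0405) and 5 with array weights, and stayed 0 without any 1 array. Same-numbered SOD1 and wild-type arrays deviated together at r = 0.145, 0.171 and 0.00228, and differently numbered ones at -0.185 to 0.0635. The values for replicates 1 and 2 were thus the highest of all. SOD1 replicate 3, however, correlated more with wild-type replicate 1 (0.0635) than with wild-type replicate 3. No label pairs the arrays, and the numbers were not taken to pair them. Whether same-numbered arrays share a batch was not tested. The block left the counts against cord within 1.5 times. Leaving out 1 array gave 15477 to 18336 probe sets and 7 to 9 members for wild-type motor neurons against cord, and 14255 to 17903 and 7 to 10 for SOD1 motor neurons. The causes were not tested.

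These log2 changes turned sign. For SOD1 minus wild-type motor neurons, Chodl had -0.043 after quantile normalization and -0.039 after centring, and Esrrg 1455267_at had -0.013 after centring. Array weights gave Calcb 0.024 and Htr1d 1422290_at -0.36. Without 1 array, Chodl ranged from -0.030 to 0.086, Calcb from -0.058 to 0.0051, Esrrg 1455267_at from -0.22 to 0.35 and Htr1d 1422290_at from -0.17 to 0.62. For wild-type motor neurons minus cord, quantile normalization and centring gave 0.74 and 0.81 for Esrrb 1441921_x_at, 0.58 and 0.61 for Esrrb 1436926_at and 0.44 and 0.49 for Htr1d 1440741_at, and centring gave 0.54 for Rbfox3 1456149_at. Without 1 array, Esrrg 1457896_at ranged from -0.010 to 0.21, Esrrb 1441921_x_at from -0.50 to 0.41 and Htr1d 1440741_at from -0.92 to 0.10. For SOD1 motor neurons minus cord, Rbfox3 1427286_at gave 0.43 after quantile normalization and 0.71 after centring, and Esrrb 1436926_at -0.29 with array weights. Without 1 array, Esrrb 1441921_x_at ranged from -0.17 to 0.74 and Esrrb 1436926_at from -0.21 to 0.25.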
